A study of Mus musculus with 12 samples.

Results

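The citrate cycle oxidizes acetyl-CoA in the mitochondrial matrix and hands the electrons to the respiratory chain, and neurons, which depend on oxidative metabolism, express its enzymes at high levels. The transcripts examined here were those of 9 genes, taken as the rows of the deposited tables that name Cs, Idh3a, Idh3b, Ogdh, Dld, Sdha, Sdhb, Fh1 or Mdh1. The 9 genes were found in all 3 tables, among 39040, 39089 and 39008 genes listed under a single name (2 h, 24 h and 7 d in that order), and all 9 passed the minimum of 1 FPKM that left 12914, 13117 and 12972 genes. Cs encodes citrate synthase, which condenses acetyl-CoA with oxaloacetate. Idh3a and Idh3b encode subunits of the NAD-dependent isocitrate dehydrogenase, and Ogdh the first enzyme of the oxoglutarate dehydrogenase complex. Dld encodes dihydrolipoamide dehydrogenase, which the oxoglutarate and pyruvate dehydrogenase complexes share. Sdha and Sdhb encode the flavoprotein and the iron-sulfur subunit of succinate dehydrogenase, which is also complex II of the respiratory chain, and Fh1 encodes fumarase. Mdh1 encodes the cytosolic malate dehydrogenase of the malate-aspartate shuttle, and the matrix enzyme of the cycle itself is encoded by Mdh2.

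The tissue was the bilateral prefrontal cortex of male C57BL/6 mice (C57BL/6 J in the methods), 10 weeks old in the labels, with no transgene or mutant allele named. The mice received intraperitoneal cocaine (20 mg/kg per day) or saline for 14 consecutive days and were killed 2 h or 24 h or 7 d later, which gave 6 groups: saline at 2 h, cocaine at 2 h, saline at 24 h, cocaine at 24 h, saline at 7 d and cocaine at 7 d. Each group consisted of 2 libraries of polyA RNA, each made from the pooled tissue of 5 mice, so that 12 libraries stood for 60 mice. The question was how each transcript differed between cocaine and saline as the time since the last injection grew.

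For each gene the tables hold 1 FPKM per group (fragments per kilobase of transcript and per unit of mapped fragments), which the authors pooled over the 2 libraries. No spread between libraries could be computed from pooled values, so the values below carry no SD, no difference has a replicate check, and no difference was tested. The depth behind the values is unknown from the tables. Changes are given as log2 of cocaine over saline FPKM after 1 was added to each, and a change was counted as past the threshold at 1.2-fold, which is 0.263 on this scale. The share of all genes past the same threshold is given beside the first count at each time, and it is the background against which the counts of citrate cycle genes can be read. The 3 tables came from separate runs of the authors' software, so a level set across time points also carries any difference in scaling between runs. Tissue from a whole brain region was sequenced, in which fewer cells of a type and less RNA per cell cannot be told apart.

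The 9 transcripts differed widely in level on the FPKM scale, which takes account of length. Mdh1 was the most abundant, with a median of 397.3 FPKM over the 6 groups, and Fh1 the least abundant, with 37.6 FPKM. Between them, in descending order of the median over the 6 groups, stood Sdha (124.8 FPKM), Sdhb (104.5), Idh3b (102.2), Idh3a (79.8), Cs (75.1), Ogdh (49.9) and Dld (48.0). The ranges over the 6 groups overlapped for the neighbours Sdhb and Idh3b, Idh3a and Cs, Ogdh and Dld, and Dld and Fh1, so the order within those pairs was not fixed. The ranges of Mdh1 and Sdha, Sdha and Sdhb, Idh3b and Idh3a, and Cs and Ogdh did not overlap. Mdh2, the matrix counterpart of Mdh1, had a median of 197.0 FPKM.

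**Figure D1:**
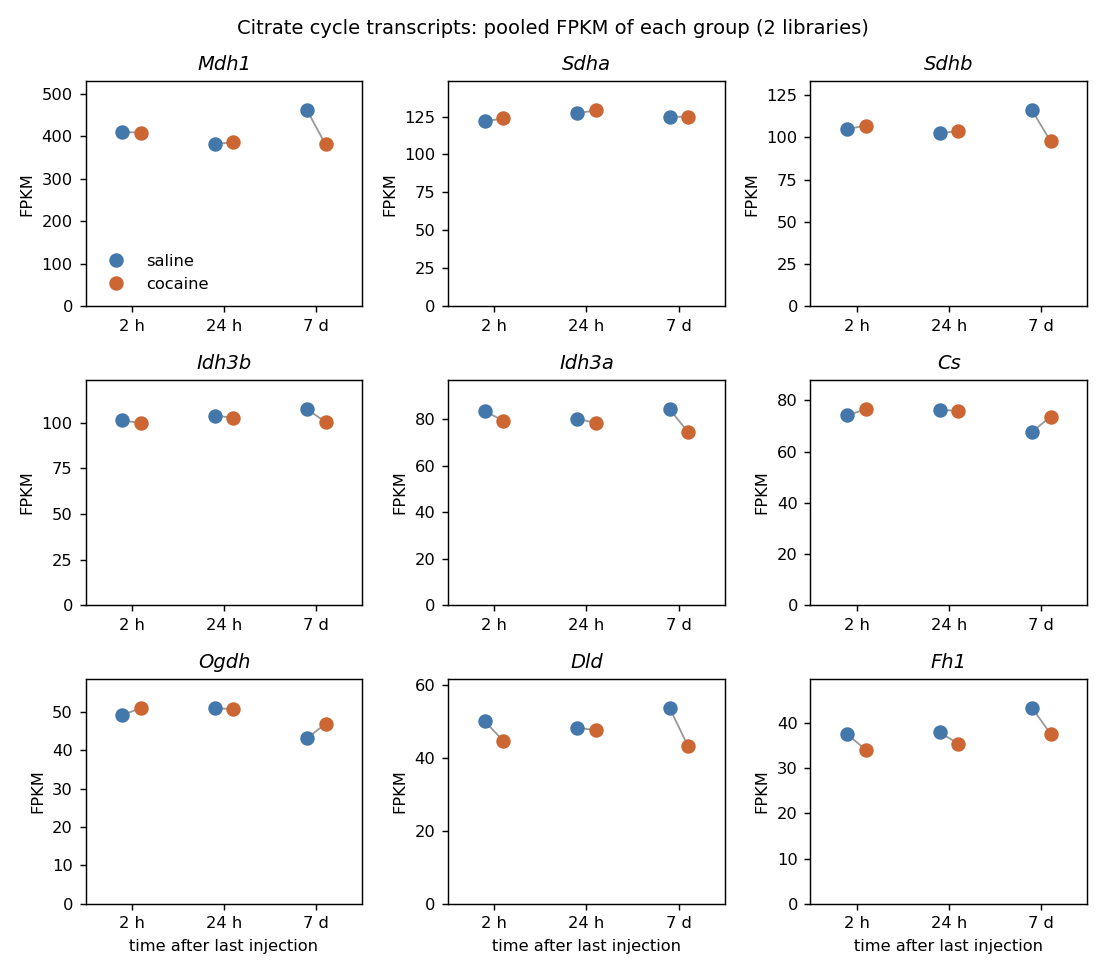
FPKM (vertical axes, each from 0) of the 9 citrate cycle transcripts in saline (blue) and cocaine (orange) groups by time since the last injection (2 h, then 24 h, then 7 d). Each point is the authors' value pooled over 2 libraries, with no error bar, and grey lines join the groups of 1 table; the widest gaps, as for Mdh1 (461.1 against 381.0 FPKM) and Dld (53.7 against 43.2 FPKM), stand at 7 d.

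At 2 h after the last injection the citrate cycle transcripts differed little between the groups. In cocaine 5 of the 9 were at a lower and 4 at a higher FPKM, 0 were past 1.2-fold in either direction, and their median log2 change was -0.0045 against 0.02 over all genes. Over all genes, 4.74% were lower and 7.62% higher by 1.2-fold at this time, and 43.3% were lower by any size. The lowest change was that of Dld, with 50.0 FPKM in saline and 44.7 in cocaine (log2 -0.16). Of all genes, 11.1% had a lower change than Dld. Fh1 followed, with 37.5 FPKM in saline and 34.1 in cocaine (log2 -0.13). Idh3a had 83.5 and 79.4 FPKM in saline and cocaine (log2 -0.07). The other members lay between -0.02 for Idh3b and 0.05 for Ogdh on the log2 scale, and Mdh1, the most abundant, had 410.3 and 409.0 FPKM in saline and cocaine.

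At 24 h the differences were smaller still. In cocaine 6 of the 9 were at a lower FPKM, where 46.9% of all genes were, and 0 were past 1.2-fold, against 3.49% of all genes lower and 4.02% higher by that size. The median log2 change was -0.0074 against 0.0078 over all genes. Fh1 again had a lower value in cocaine, with 38.0 FPKM in saline and 35.5 in cocaine (log2 -0.10), and 18.5% of all genes had a lower change. Dld, the lowest at 2 h, was at 48.3 and 47.7 FPKM in saline and cocaine now (log2 -0.02). The remaining 7 members lay between -0.03 for Idh3a and 0.02 for Sdhb. Cs, for example, was at 76.3 FPKM in saline and 76.0 in cocaine.

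At 7 d the members moved apart from each other. Dld and Mdh1 were lower in cocaine by more than 1.2-fold and Sdhb by slightly less, Fh1, Idh3a and Idh3b were lower by smaller amounts, Sdha was level, and Cs and Ogdh were higher. In all, 6 of the 9 genes were lower in cocaine, where 52% of all genes were; 2 of the 9 were lower by 1.2-fold, where 8.98% of all genes were; and 0 of the 9 were higher by that size, where 4.86% were. The median log2 change of the members was -0.18 against -0.0079 over all genes, and -0.09 with the median of genes of like transcript length taken out, as described further on.

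**Figure D2:**
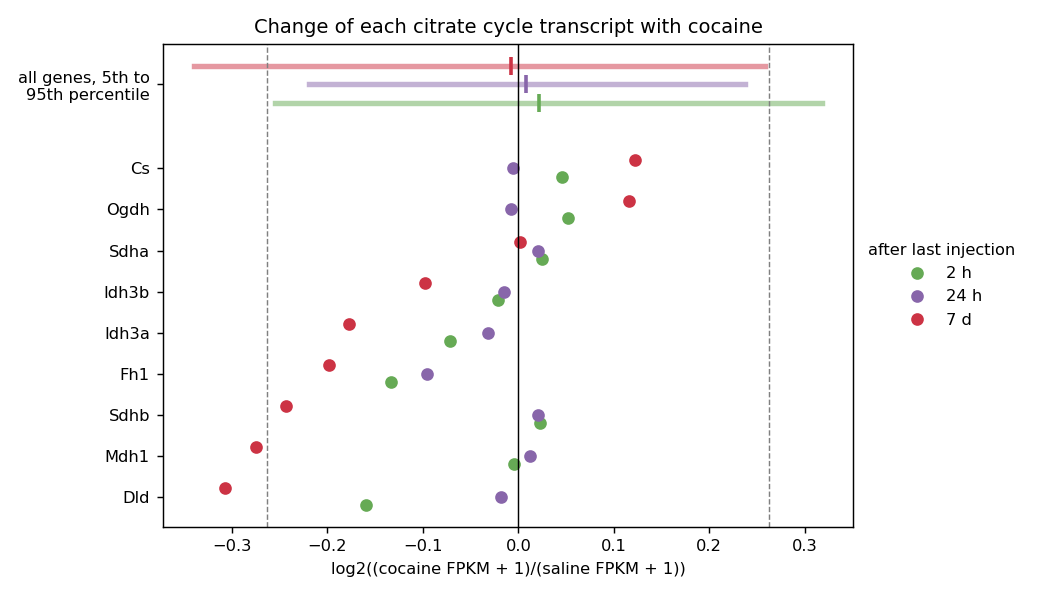
Log2 change with cocaine (horizontal axis) of each citrate cycle transcript at 2 h (green), 24 h (purple) and 7 d (red), ordered by the change at 7 d. Bars at the top span the 5th to the 95th percentile of all genes, with the median as a tick, and dashed lines mark 1.2-fold; Dld (-0.31) and Mdh1 (-0.27) pass the lower line at 7 d.

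Dld was the member with the lowest change at 7 d. Its FPKM was 53.7 in saline and 43.2 in cocaine, 19.5% lower in cocaine (log2 -0.31), and 6.3% of all genes had a lower change. The gene lies on chromosome 12 from 31331562 to 31351471 (GRCm38). Over the 6 groups its highest value was that of saline at 7 d and its lowest that of cocaine at 7 d, so at that time the groups stood at the ends of its range.

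Mdh1 had 461.1 FPKM in saline and 381.0 in cocaine at 7 d, 17.4% lower in cocaine (log2 -0.27), and 8.2% of all genes had a lower change. It lies on chromosome 11 from 21556692 to 21571934. Its saline value at 7 d was the highest of the 6 groups, whereas its cocaine value at 7 d differed little from both groups at 24 h, which had 382.6 FPKM in saline and 385.7 in cocaine. Mdh2, the matrix enzyme, had 196.5 FPKM in saline and 187.8 in cocaine at 7 d (log2 -0.07). The ratio of Mdh1 to Mdh2 within the 7-day table was 2.35 in saline and 2.03 in cocaine, and at 24 h it was 1.88 and 1.84. At 2 h it was 2.13 in saline and 2.07 in cocaine.

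Succinate dehydrogenase showed the members of 1 enzyme diverging at 7 d, though by less in the comparisons described further on. Sdhb, on chromosome 4 from 140961271 to 140979198, had 116.0 FPKM in saline and 97.8 in cocaine (15.7% lower, log2 -0.24). Sdha, on chromosome 13 from 74322255 to 74350240, had 124.7 FPKM in saline and 124.9 in cocaine (log2 0.0014). The membrane anchor subunits, which are encoded by Sdhc and Sdhd and were not among the 9 genes, moved with Sdhb: Sdhc had 54.5 and 47.7 FPKM in saline and cocaine (log2 -0.19). Sdhd had 69.4 and 61.3 FPKM (log2 -0.18). The ratio of Sdhb to Sdha was 0.93 in saline and 0.784 in cocaine at 7 d. At 2 h it was 0.864 and 0.863, and at 24 h 0.805 in both groups, so the groups differed in this ratio by far more at 7 d than at the earlier times. With the median of genes of like transcript length taken out, Sdhb was at -0.09 and Sdha at 0.0071 at 7 d. Against the median of the 3 saline groups they were at -0.06 and 0.03.

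The oxoglutarate dehydrogenase complex was divided as well. Ogdh, on chromosome 11 from 6291597 to 6359094, had 43.2 FPKM in saline and 46.9 in cocaine at 7 d (log2 0.12), and Dlst, which encodes the succinyltransferase core, had 33.97 and 35.47 FPKM (log2 0.06). Dld, the subunit that this complex shares with others, went the other way, and the ratio of Dld to Ogdh was 1.25 in saline and 0.923 in cocaine. At 2 h that ratio was 1.02 and 0.876, and at 24 h 0.947 and 0.94. With like transcript length taken out, Dld was at -0.27 and Ogdh at 0.08 at 7 d. Against the median of the 3 saline groups both were lower, at -0.16 and -0.02. A second locus that bears the name Ogdh at 2 h and 24 h, at the same coordinates, had under 2 FPKM and was not used.

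The subunits of isocitrate dehydrogenase 3 stayed closer together. Idh3a, on chromosome 9 from 54586511 to 54604662, had 84.4 FPKM in saline and 74.5 in cocaine at 7 d (log2 -0.18). Idh3b, on chromosome 2 from 130279309 to 130284451, had 107.6 and 100.5 FPKM (log2 -0.10). The regulatory subunit Idh3g, not among the 9 genes, had 89.1 and 77.8 FPKM (log2 -0.19). The ratio of Idh3b to Idh3a was 1.28 in saline and 1.35 in cocaine, and that of Idh3g to Idh3a 1.06 and 1.04, so these ratios differed between the groups by less than those of Sdhb to Sdha or Dld to Ogdh. The annotated end of Idh3b overlaps that of the protein-coding gene Nop56, and the library kit named in the methods does not mark strand, so reads in the overlap cannot be assigned to either gene.

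Cs and Fh1 catalyse single steps. Cs, on chromosome 10 from 128337727 to 128362482, had 67.6 FPKM in saline and 73.7 in cocaine at 7 d (log2 0.12), and its saline value at 7 d was the lowest of its 6 values. Fh1, on chromosome 1 from 175601378 to 175625635, had 43.4 and 37.7 FPKM (log2 -0.20). Fh1 was the member with a lower value in cocaine by about 0.1 or more on the log2 scale at each time, with -0.13 at 2 h, -0.10 at 24 h and -0.20 at 7 d, although against the median of the 3 saline groups its 7-day change was 0.04. Dld and Idh3a were lower in cocaine at each time too, and so was Idh3b, but with changes of -0.02 for Dld, -0.03 for Idh3a and -0.02 for Idh3b at 24 h.

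**Figure D3:**
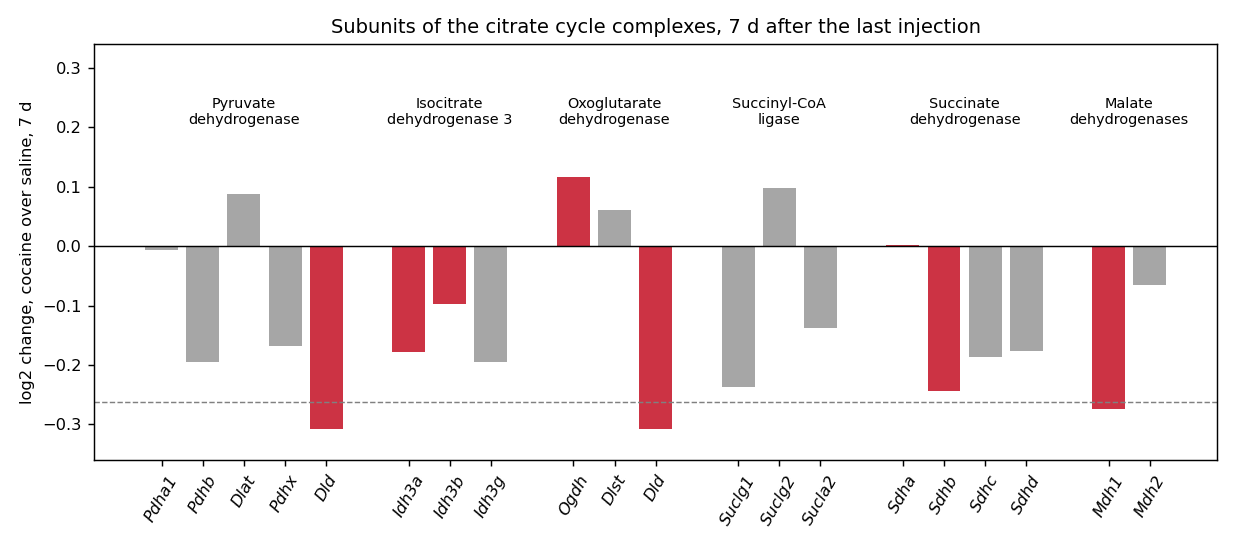
Log2 change with cocaine at 7 d (vertical axis) of the subunits of 6 enzymes or complexes, with the citrate cycle genes under study in red and other subunits in grey; the dashed line marks 1.2-fold lower. Dld, drawn under both of the shown complexes that contain it, is at -0.31 beside Ogdh at 0.12, and Sdhb at -0.24 beside Sdha at 0.0014.

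The values of the saline groups bear on how the 7-day differences can be read. For 6 of the 9 members (Mdh1, Sdhb, Idh3b, Idh3a, Dld and Fh1) the highest of the 6 group values was saline at 7 d, and for Cs and Ogdh saline at 7 d was the lowest. Saline at 7 d was the highest of the 6 groups for 25.4% and the lowest for 29.8% of 12471 genes kept in all 3 tables. Cocaine at 7 d was the lowest for 4 members, namely Mdh1, Sdhb, Idh3a and Dld, and for 17.4% of all genes. The gap between the highest and the lowest of the 3 saline values was 0.15 on the log2 scale for Dld, 0.27 for Mdh1 and 0.18 for Sdhb. The 7-day change of Dld (0.31 in size) was thus larger than the gap between its saline groups, that of Sdhb (0.24) was larger by less, and that of Mdh1 (0.27) was about as large as the gap. Fh1, Cs and Ogdh had 7-day changes smaller than their saline gaps (0.20, 0.17 and 0.23), and so had Sdha (0.06). In all 5 of 9 members had a 7-day change above their own saline gap, as did 23.6% of all genes.

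When the cocaine value at 7 d was instead set against the median of the 3 saline values, after the 3 tables were brought to a common median, 0 members were lower by 1.2-fold, where 2.97% of all genes were. Dld was then at -0.16, Idh3a at -0.12, Mdh1 at -0.06 and Sdhb at -0.06 on the log2 scale, and Cs and Sdha were at 0.04 and 0.03. The sign was the opposite of that against saline at 7 d for Fh1 (0.04), Idh3b (0.0038) and Ogdh (-0.02). In all 5 of the 9 were lower by any size, and the median of the 9 was -0.02. The share of all genes lower by any size was not computed for this comparison. This comparison was chosen after the values had been seen.

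Transcript length moved with the change at 7 d. Across 11039 genes with a length, Spearman's rho between length and log2 change was 0.487 at 7 d, against 0.157 at 2 h and 0.086 at 24 h; genes of 1 table share its libraries and are not independent, so no p value is attached. In the saline groups, rho between length and the difference of 7 d from the mean of 2 h and 24 h was -0.511 across 10798 genes, and in the cocaine groups -0.165. Short transcripts thus tended to be higher in saline at 7 d relative to the other saline groups, and the same trend was weaker in cocaine. The 3 members that were not lower in cocaine at 7 d, Ogdh, Sdha and Cs, had the longest transcripts of the 9 (4168, 2900 and 2828 nt), and Sdhb had the shortest (1142 nt). The others lay between 1616 nt for Idh3b and 2636 nt for Fh1. With the median of genes of like length taken out, the 7-day changes were -0.27 for Dld, -0.22 for Mdh1, -0.18 for Fh1, -0.15 for Idh3a and -0.09 for Sdhb, and 0.0019 for Idh3b. Cs, Ogdh and Sdha were at 0.14, 0.08 and 0.0071, and the median of the 9 was -0.09. Only Dld of the 9 was then lower by 1.2-fold, where 3.28% of the genes with a length were. The part of transcript length in the difference between groups was not tested.

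**Figure D4:**
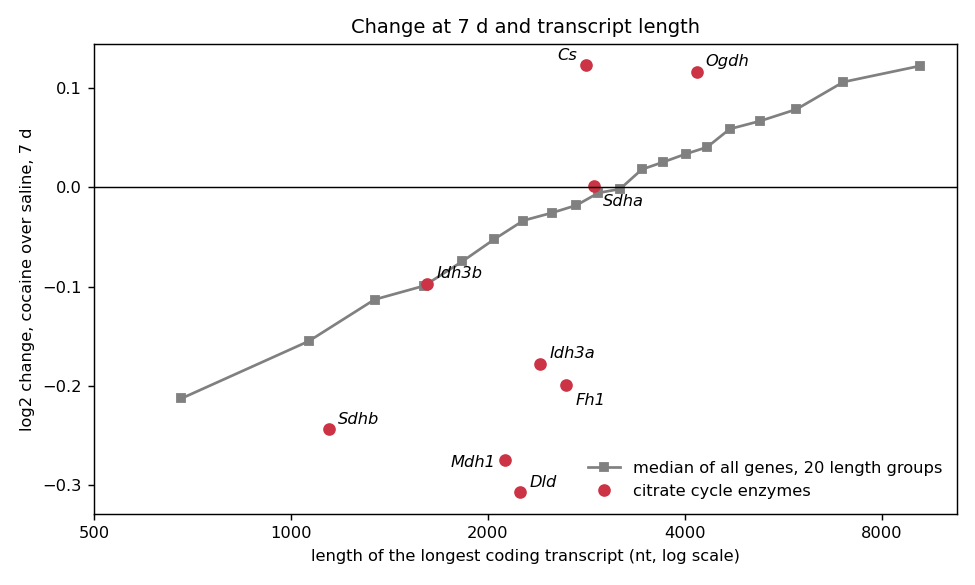
Log2 change with cocaine at 7 d (vertical axis) against the length of the longest coding transcript (horizontal axis, log scale) for the 9 citrate cycle genes (red). Grey squares are medians of all genes in 20 groups of length, which rise from -0.21 to 0.12; Dld, Mdh1, Idh3a, Fh1 and Sdhb lie below the grey line, Idh3b and Sdha on it, and Cs and Ogdh above it.

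Promoter sequence was set beside these differences for the members with the lowest 7-day changes (Dld, Mdh1 and Sdhb) and for Sdha, the partner of Sdhb that was level. The 250 bases before the annotated start are printed 5′ to 3′ on the strand of the gene, from RefSeq on GRCm38.p6. Capitals mark matches, on either strand, to letters that the nuclear respiratory factor NRF1 is known to bind, searched as GCGCA, any base and GCGC.
Sdha promoter, minus strand, chr13:74350241-74350490: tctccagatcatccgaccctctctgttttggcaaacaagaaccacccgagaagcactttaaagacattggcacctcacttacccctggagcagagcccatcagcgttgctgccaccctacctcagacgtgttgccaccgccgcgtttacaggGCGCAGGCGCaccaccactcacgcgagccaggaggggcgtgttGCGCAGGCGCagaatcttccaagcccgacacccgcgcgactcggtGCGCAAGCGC
Sdhb promoter, plus strand, chr4:140961021-140961270: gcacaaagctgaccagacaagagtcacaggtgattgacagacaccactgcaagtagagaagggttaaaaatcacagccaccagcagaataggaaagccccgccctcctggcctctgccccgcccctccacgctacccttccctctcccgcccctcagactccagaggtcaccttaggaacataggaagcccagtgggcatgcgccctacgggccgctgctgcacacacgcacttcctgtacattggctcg
Dld promoter, minus strand, chr12:31351472-31351721: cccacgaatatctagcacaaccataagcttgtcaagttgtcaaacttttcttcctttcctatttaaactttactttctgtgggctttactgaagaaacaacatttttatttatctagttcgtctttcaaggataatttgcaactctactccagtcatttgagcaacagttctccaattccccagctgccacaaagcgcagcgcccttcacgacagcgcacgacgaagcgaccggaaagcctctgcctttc
Mdh1 promoter, minus strand, chr11:21571935-21572184: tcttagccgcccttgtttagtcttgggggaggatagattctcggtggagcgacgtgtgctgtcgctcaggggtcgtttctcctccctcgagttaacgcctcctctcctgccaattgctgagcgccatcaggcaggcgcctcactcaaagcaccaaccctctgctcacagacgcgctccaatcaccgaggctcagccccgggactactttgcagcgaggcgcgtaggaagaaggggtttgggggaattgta
The Sdha window held 3 matches, which begin 98, 55 and 10 bases before the start. The other 7 member promoters with an entry held none, and Idh3a had no entry. Over all 27025 promoters 3.87% held a match, and over the 17492 of protein-coding genes 5.32%. Matches to AAGGTCA, the site of an estrogen-related receptor monomer, and to CCGGAAG, a site of ETS factors such as GABPA, were found in 0 of the 8 member promoters, against 4.04% and 7.07% of all promoters. A match describes letters in this window and not binding. Only these fixed letters were searched, so sites that depart from them were not counted, and a window without a match may still hold such sites. The windows of Sdhb, Dld and Mdh1 held no match to the 3 motifs as searched. The GC content of the 8 windows ran from 43.6% for Dld to 61.6% for Sdha, around a median of 52% for all promoters.

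The list of other enzymes and subunits of the cycle and its cytosolic counterparts held 12 genes, all measured. Of these, 6 were lower and 6 higher in cocaine at 7 d, 0 were past 1.2-fold in either direction (8.98% of all genes lower and 4.86% higher by that size), and their median log2 change was -0.02. Suclg1, the alpha subunit of succinyl-CoA ligase, had the lowest change, with 68.4 FPKM in saline and 57.9 in cocaine (log2 -0.24), and Ogdhl, a paralog of Ogdh, the highest, with 20.4 and 22.2 FPKM (log2 0.12). Among the ligase's beta subunits, the ATP-forming Sucla2 was at -0.14 and the GTP-forming Suclg2 at 0.10. At 2 h the changes of the 12 ran from -0.10 for Sucla2 to 0.22 for Idh2, the NADP-dependent mitochondrial isocitrate dehydrogenase, with 0 past 1.2-fold (4.74% of all genes lower and 7.62% higher). At 24 h they ran from -0.17 for Suclg2 to 0.09 for Ogdhl, again with 0 past 1.2-fold (3.49% lower and 4.02% higher). Over these and the 9 members together, 21 genes, 12 were lower at 7 d, where 52% of all genes were. The median log2 change of the 21 was -0.10.

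Genes around the cycle were described in 3 lists, whose 7-day counts can be read against the 52% of all genes lower by any size, the 8.98% lower by 1.2-fold and the 4.86% higher by 1.2-fold. In the list of pyruvate entry, 2 of 14 genes were lower by 1.2-fold at 7 d and 0 higher, with a median of 0.04. These were the subunits of the mitochondrial pyruvate carrier: Mpc2 had 94.6 FPKM in saline and 69.3 in cocaine (log2 -0.44), and Mpc1 169.8 and 136.2 FPKM (log2 -0.32). For Mpc2, 2.6% of all genes had a lower change. Neither carrier gene had a transcript length, so the trend with length could not be taken out for Mpc1 and Mpc2. Pdk1, a kinase that inactivates pyruvate dehydrogenase, had the highest change of that list at 7 d, with 11.1 and 12.8 FPKM (log2 0.19). In the list of cofactor and assembly genes, all 5 measured of 7 had a lower value in cocaine at 7 d, of which 2 passed 1.2-fold. Sdhaf1, an assembly factor that serves the iron-sulfur subunit of succinate dehydrogenase, had 4.38 FPKM in saline and 2.70 in cocaine (log2 -0.54), a low level at which the added 1 FPKM shrinks the change. Its transcript is short (965 nt), and the shortest length groups, with median lengths of 680 and 1065 nt, had median changes of -0.21 and -0.15. Lias, the lipoic acid synthase on whose product the oxoglutarate and pyruvate dehydrogenase complexes depend, had 15.3 and 12.3 FPKM (log2 -0.29), and Sdhaf2 had the highest change of the list, -0.13. In the list of shuttle and side reactions, 10 of 12 measured genes were lower at 7 d but 0 were past 1.2-fold, with changes from -0.15 for the malic enzyme Me3 to 0.18 for glutamate dehydrogenase (Glud1), and the aspartate aminotransferases Got1 and Got2, partners of Mdh1 in the malate-aspartate shuttle, were at -0.04 and -0.05.

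The genes nearest in pattern to the citrate cycle members were found by the Euclidean distance of their 3 log2 changes from the medians of the members (-0.0045, -0.0074 and -0.18), over 5480 other genes with at least 10 FPKM at each time. The nearest was Sdhd, at a distance of 0.012, followed by Park7 (0.014), Prelid1 (0.018), Tmem208 (0.019) and Clk3 (0.021). Their log2 changes at 7 d lay between -0.18 and -0.20. The likeness rests on 3 values per gene, of which those at 2 h and 24 h were near 0.

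The markers of the tissue and of other cells were as follows. Slc17a7, the vesicular glutamate transporter of cortical excitatory neurons, was between 465.6 and 532.0 FPKM in the 6 groups, and Drd2, a marker of striatal neurons, was under 1 FPKM in every group. The summed FPKM of 5 astrocyte markers was 312.7 in saline and 350.8 in cocaine at 7 d, with 5 of 5 higher in cocaine. At 24 h the sums stood at 366.8 in saline and 326.8 in cocaine, with 5 of 5 lower, and at 2 h at 319.3 and 351.4, with 5 of 5 higher. Of 6 endothelial markers, 5 were higher in cocaine at 7 d (sums of 128.5 and 136.3 FPKM). At 2 h 5 of the 6 were higher as well (125.2 and 141.6 FPKM), and at 24 h 2 were (142.0 and 141.7 FPKM). The sums of 6 oligodendrocyte markers were 781.8 and 775.7 FPKM at 7 d, with 3 of 6 lower, but at 24 h they were 802.8 in saline and 668.6 in cocaine (16.7% lower), with 6 of 6 lower. Those of 6 microglia markers were 187.0 and 186.5 FPKM at 7 d, with 3 of 6 lower. Of 8 excitatory neuron markers 3 were lower in cocaine at 7 d (sums of 564.8 and 575.1 FPKM), and of 6 inhibitory neuron markers 4 were lower (473.9 and 436.2 FPKM). Slc17a7 made up most of the excitatory sums (465.6 FPKM in saline and 483.3 in cocaine), and Sst most of the inhibitory ones (261.6 and 229.0). Among the excitatory markers, Neurod6 and Fezf2 were lower by 1.2-fold (log2 -0.39 and -0.35) and Cux2 was higher (0.28). Over all genes 8.98% were lower and 4.86% higher by that size. The sums of 6 striatal markers, with Drd2 near 0, were 79.6 and 79.1 FPKM. In the choroid plexus list, Kl, Clic6, Folr1, Otx2 and Aqp1 were under 1 FPKM in every group, and Ttr accounted for the difference in the sums (1.52 and 7.57 FPKM). The part of the cell makeup in the changes of the citrate cycle genes was not tested.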

How the data were processed

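After trimming, the authors mapped the reads with TopHat2, used only those with 1 location, and compared cocaine with saline by Cuffdiff of the Cufflinks package, in a separate run for each time point. The processing notes of the labels name CASAVA 1.8.2, Trimmomatic 0.32, TopHat2 2.0.12, Cufflinks 2.2.1 and GRCm38, whereas the methods name cutadapt and mm9; the positions of 99.9%, 99.8% and 99.9% of the named genes at 2 h, at 24 h and at 7 d overlapped the same gene in the GRCm38 RefSeq table, so gene coordinates are 1-based on that build. The deposited tables give FPKM values that the authors pooled over the 2 libraries of a group. They also hold the authors' log2 fold change, test statistic, p value and q value, which were not used. The first FPKM column was taken as saline and the second as cocaine, because the FPKM headed saline and cocaine in the paper's supplementary tables for each time follow that order. The headers themselves mark only the first, by the letter C, which the sample labels use for cocaine (CC for control); read that way, every direction would turn. Depth per library is unknown from the tables.

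The analysis ran in Python 3.11.15 (pandas 2.3.3, numpy 2.4.6), with figures from matplotlib 3.10.9. A gene name on several loci took the longest locus, and on a tie the locus with the higher FPKM. The measured loci of some members reached well beyond the gene coordinates given. At 7 d those of Mdh1, Dld, Fh1 and Idh3b spanned 342203, 86204, 61843 and 10274 bases, against gene lengths of 15243, 19910, 24258 and 5143. The part of this in their FPKM was not tested. Genes with a mean of at least 1 FPKM were kept, 1 FPKM was added before log2, and 1.2-fold was the threshold. No test was made, since each group has 1 pooled value. Lengths were those of the longest coding transcript of the same symbol in GENCODE, found for 85.7%, 84.9% and 85.1% of the kept genes. The steps were tested on simulated data. The members and gene lists were chosen with earlier results of these data known. The genes named were every member. Of the other cycle genes, those past 1.2-fold and the lowest and highest change per time were named. Of the 3 neighbouring lists, those past 1.2-fold and the lowest and highest at 7 d were named, and so were the 5 nearest in pattern. Partners of a named complex or shuttle and the regulators of pyruvate dehydrogenase were named after their values were seen. An item withheld from the text is not reported here.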

Additional observations from a re-analysis of the deposited data

Results flagged for a closer look

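Among the listed genes, 2 markers were past 1.2-fold in opposite directions at different times; each group has 1 pooled value, so the difference between times was not tested. Gfap, an astrocyte marker, had log2 changes of -0.34 at 24 h and 0.29 at 7 d. Ttr, which is abundant in the choroid plexus, had -0.99 at 2 h, -0.42 at 24 h and 2.56 at 7 d. None of the 9 citrate cycle genes was past 1.2-fold in opposite directions.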

How the results depend on the processing

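The alternatives were a pseudocount of 0.1 or 0, no minimum of FPKM or one of 10, thresholds of 1.1-fold and 1.5-fold, centring on the median of all genes or of genes of like transcript length, the locus with the highest FPKM, and, added after the values were seen, the median of the 3 saline groups as reference at 7 d. A count was taken as moved outside 1.5 times and a log2 value outside 0.1. Of 112 counts and medians over the members 6 moved, and of 252 changes of single genes 7 moved. The thresholds could not alter a log2 change, nor could the FPKM minimum, as every member stood above 10 FPKM. Medians and counts of any size were fixed likewise under those settings, so the share that moved is no measure of stability. Among the genes past 1.2-fold no change turned in sign, but against the 3 saline groups those of Fh1, Idh3b and Ogdh, all under 1.2-fold, did. With like transcript length the sign also turned for Idh3b at 7 d (-0.10 to 0.0019) and for Sdha at 24 h (0.02 to -0.0003). With 1.1-fold, 1 member was lower at 2 h (13.5% of all genes) and 5 at 7 d (22.6% of all genes), in place of 0 and 2. With 1.5-fold 0 were lower at 7 d (1.56% of all genes), and with like transcript length 1 was (3.28%), where the 7-day median also went from -0.18 to -0.09. Against the 3 saline groups, 0 were lower by 1.2-fold at 7 d and the median was -0.022. No paired analysis was possible because the deposited values are pooled over the 2 libraries of each group, and for the same reason no library was left out. The pooling also leaves the error of each value unknown, so changes of the size seen here cannot be set against the spread between libraries.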

Other observations

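Among the regulators of the pyruvate dehydrogenase complex, Pdp1, Pdp2, Pdk2, Pdk3 and Pdk4 had their widest changes at 2 h or 24 h, and Pdk1 and Pdpr had theirs at 7 d, with log2 changes of 0.19 and 0.12. Pdp1, the phosphatase that activates the complex, had 43.4 and 64.4 FPKM in saline and cocaine at 2 h (log2 0.56), and 98.2% of all genes had a lower change. At 24 h Pdp1 was at 43.2 and 48.6 FPKM (log2 0.17), and at 7 d at 39.0 and 41.0 FPKM (log2 0.07). Pdk4, a kinase that inactivates the complex, had 3.60 and 4.45 FPKM at 2 h (log2 0.24), 5.02 and 3.62 FPKM at 24 h (log2 -0.38) and 4.42 and 4.76 FPKM at 7 d (log2 0.09), at a level near the minimum of the analysis. Pdk2, a more abundant kinase, had log2 changes of 0.19, 0.03 and 0.14 at 2 h, at 24 h and at 7 d. These values are pooled per group and were chosen after they had been seen, and no difference between the times was tested.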
